A study of Mus musculus with 3 samples.

Results

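The genes of the cell-cycle engine described here are the cyclins, the cyclin-dependent kinases (CDKs), the CDK inhibitors and the regulators that switch them on and off. They were chosen by gene symbol alone, from the families of cyclins (*Ccn*), CDKs (*Cdk*), CDK inhibitors (*Cdkn*), *Cdc2*, *Cdc20*, and *Cdc25* genes and E2F factors, with *Rb1*, *Rbl1*, *Rbl2*, *Wee1*, *Plk1*, *Aurka*, and *Aurkb* added by name. This rule found 57 of the 30854 gene symbols in the table, and no measured value entered it. Of these, 56 are current symbols, and *Cdc2a* is an older symbol of *Cdk1*, the principal mitotic CDK.

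The RNA came from wild-type mouse embryos at the early headfold (EHF) stage, E7.75, when gastrulation is well advanced and the head folds begin to form. Total RNA of the embryonic region, cut from the extraembryonic part at their junction, was hybridized to 3 Illumina Mouse-6 arrays, labelled replicates 1, 2, and 3, which make up the only group, so levels were compared only with the background of each array. The sample labels name the strain Cd-1 and a column RNA kit and give no genotype other than wild type, whereas the methods of the study name ICR mice and TRIzol. The series text speaks of 3 samples per well, the methods give N = 3 and triplicates, and the sample titles are Emb1, Emb2, and Emb3. No source states outright whether the arrays hold RNA of separate embryos. The spread between them, and every p-value built on it, may therefore be technical.

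A cyclin binds and activates its CDK, and successive cyclin-CDK pairs drive entry into the cell cycle, DNA replication, and mitosis. CDK inhibitors and the kinase Wee1 hold the pairs back, CDC25 phosphatases release them, and the anaphase-promoting complex (APC/C) with Cdc20 ends mitosis by destroying mitotic cyclins. E2F factors and the pocket proteins of the Rb family set the transcription of many of these genes. The epiblast of the gastrulating mouse embryo is known for very rapid division with short gap phases.

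Members of every role were found above background, and as many members were found on no array as on all of them. A detection p under 0.01, required here on all 3 arrays, was met by 22 of the 57 members, 38.6%, beside 20.6% of all symbols. For a symbol with 1 probe this p is the share of negative-control probes with at least as high a signal on that array. A further 5 members met it on 2 arrays and 8 on 1 array, and 22, or 38.6%, met it on none, beside 67.0% of all symbols. When the level itself was tested against the background level of its own array with limma (one-sided, Benjamini-Hochberg adjustment over all symbols), 34 members, 59.6%, passed, beside 25.7% of all symbols. These shares describe the members and carry no test of the list. Because the arrays hold bulk RNA, a low signal from fewer expressing cells and one from less RNA per cell cannot be told apart. Signals below are log2 values as deposited, given for replicates 1, 2, and 3 in that order, and a level is the normalized log2 level above the background of the array, as the mean of 3 arrays with a standard error of 0.15 that the fit gave to every gene. The p-values of this main limma fit therefore do not measure the spread of the single gene over the arrays.

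**Figure D1:**
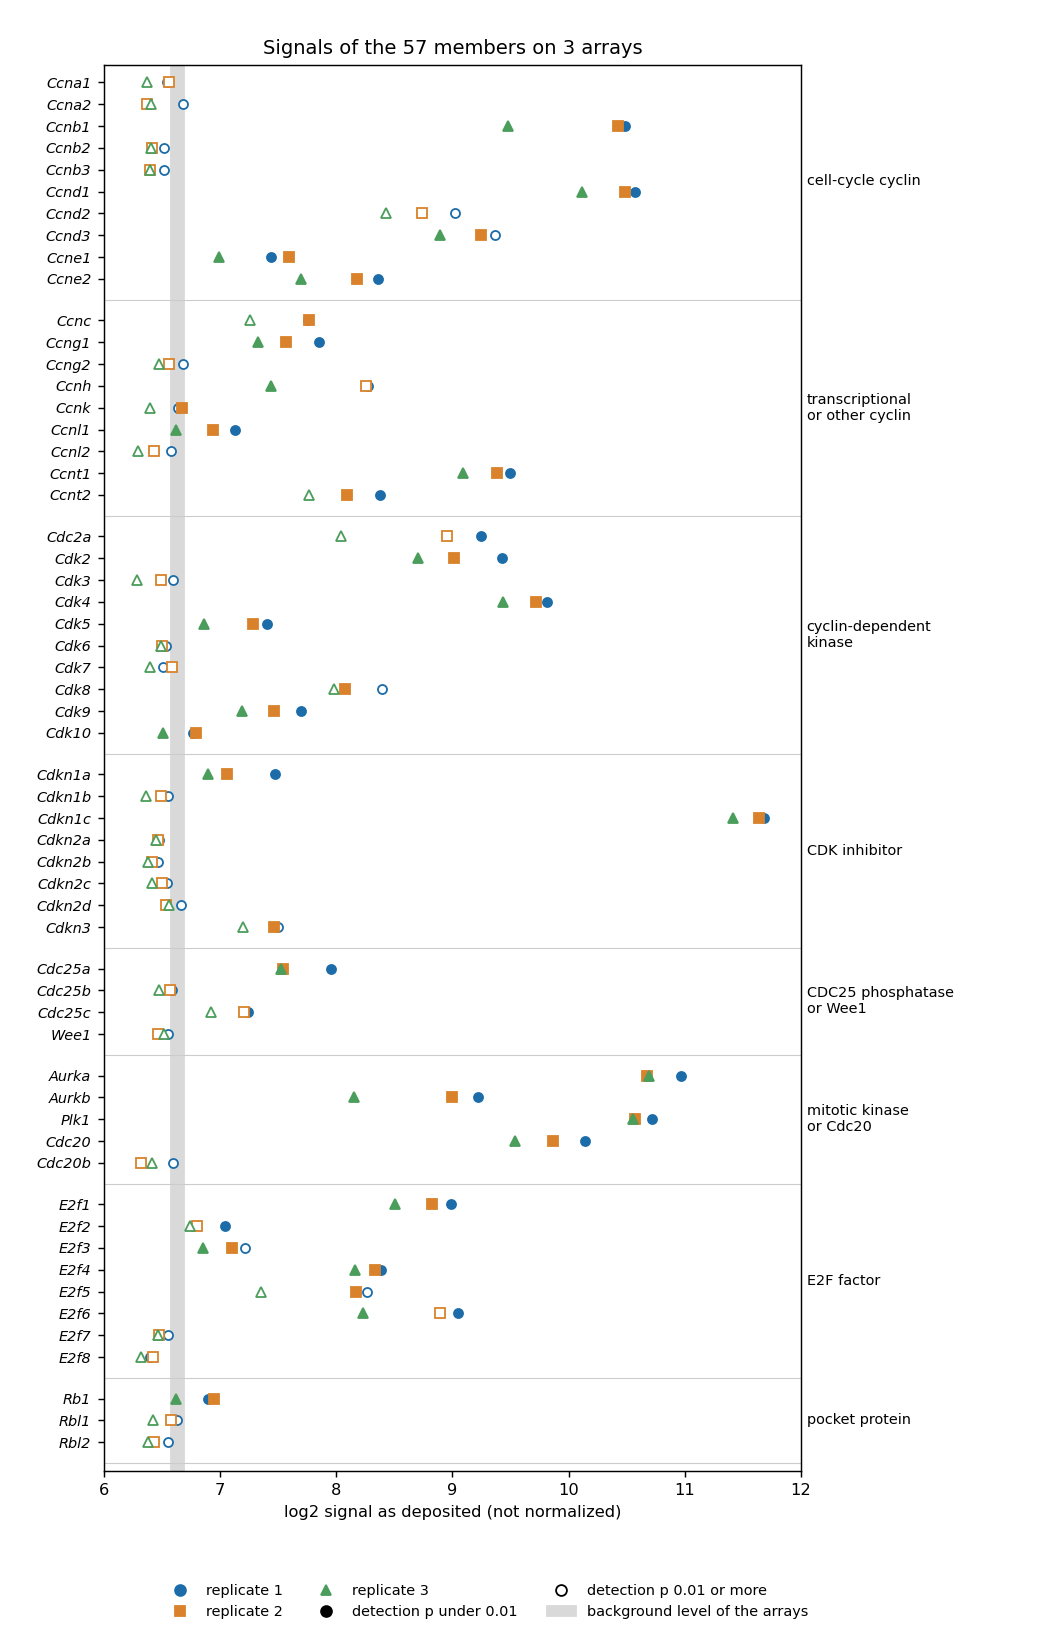
Log2 signal as deposited (x axis) of each of the 57 members (y axis, by role) on replicates 1, 2, and 3. Filled points had a detection p under 0.01, open points did not, and the grey band spans the background signals of the arrays, 6.58 to 6.69. Several open points, such as those of *Ccnd2* and *Cdc2a*, lie far to the right of the band.

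Both rules were counted by role. Of the 5 mitotic kinases and Cdc20 proteins 4 were detected on all arrays and 4 were called by limma, and of the 10 CDKs 5 and 6 were. The counts were 4 and 6 for the 10 cell-cycle cyclins and 3 and 6 for the 9 other cyclins. They were 2 and 6 for the 8 E2F factors, 2 and 3 for the 8 CDK inhibitors, 1 and 2 for the 4 CDC25 phosphatases and Wee1, and 1 and 1 for the 3 pocket proteins.

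**Figure D2:**
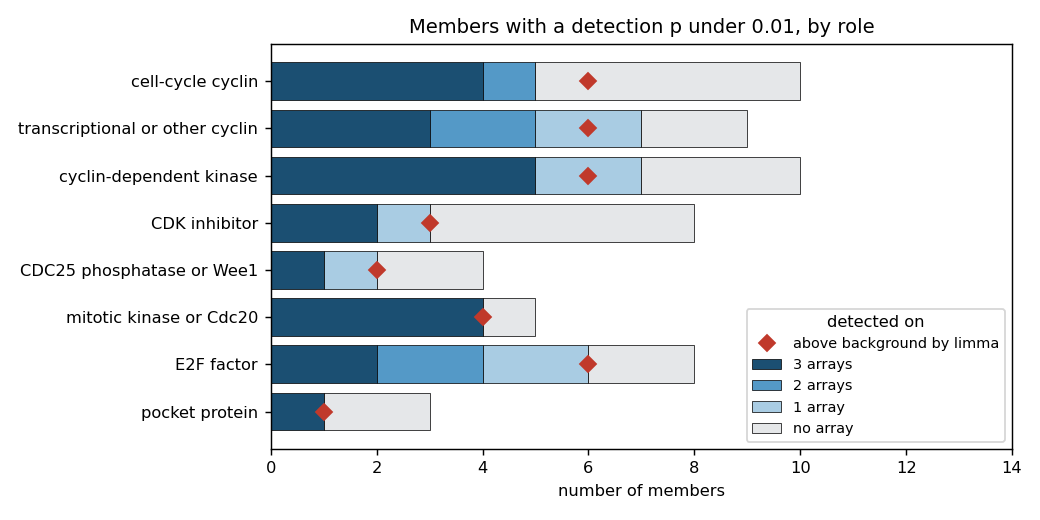
Number of members (x axis) in each role (y axis), with bars split by the number of arrays on which the detection p was under 0.01 and a red diamond at the number called above background by limma. The diamond lies furthest beyond the dark bar for E2F factors, where limma called 6 members and 2 were detected on all arrays.

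The sequences before the start sites of 5 mitotic genes are shown because their promoters are the textbook setting for the CCAAT boxes bound by NF-Y and for the cell-cycle genes homology region (CHR). Motifs were sought on both strands in the 250 bases before each start in RefSeq, build GRCm38.p6. They were CHR (TTTGAA or TTCGAA), NF-Y (CCAAT), and E2F (TTTCGCGC or TTTGGCGC). The last 150 bases are printed 5′ to 3′ on the strand of the gene, with matches to any of these motifs in capitals, in either orientation. They lie at chr4:118437344-118437493 on the minus strand for *Cdc20*, chr10:69352913-69353062 on the minus strand for *Cdc2a* (*Cdk1*), chr13:100786487-100786636 on the minus strand for *Ccnb1*, chr9:70421555-70421704 on the minus strand for *Ccnb2*, and chr7:122159285-122159434 on the plus strand for *Plk1*.
*Cdc20*: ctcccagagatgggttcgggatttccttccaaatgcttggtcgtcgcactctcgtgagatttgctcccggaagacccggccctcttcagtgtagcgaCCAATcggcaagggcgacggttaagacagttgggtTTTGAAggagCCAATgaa
*Cdc2a*: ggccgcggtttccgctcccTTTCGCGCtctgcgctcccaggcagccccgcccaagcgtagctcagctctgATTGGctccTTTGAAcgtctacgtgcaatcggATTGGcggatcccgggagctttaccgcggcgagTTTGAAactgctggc
*Ccnb1*: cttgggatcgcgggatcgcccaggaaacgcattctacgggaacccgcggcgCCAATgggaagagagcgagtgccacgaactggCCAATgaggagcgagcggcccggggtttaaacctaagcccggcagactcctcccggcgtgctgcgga
*Ccnb2*: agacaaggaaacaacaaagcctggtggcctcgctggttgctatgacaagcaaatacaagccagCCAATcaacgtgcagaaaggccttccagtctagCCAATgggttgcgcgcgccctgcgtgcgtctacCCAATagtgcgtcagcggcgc
*Plk1*: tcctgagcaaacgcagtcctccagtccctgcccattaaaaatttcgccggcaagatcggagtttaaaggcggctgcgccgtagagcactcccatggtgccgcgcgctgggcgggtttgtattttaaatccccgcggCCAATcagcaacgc

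The promoter of *Cdc2a* held both CHR and NF-Y matches and an E2F match at position -131 from the start, and that of *Cdc20* held a CHR match at -18 between CCAAT boxes at -53 and -8. In *Ccnb1* the CCAAT boxes began at -99 and -67, and in *Ccnb2* they began at -87, -54, and -21, with a CHR match at -167 outside the printed stretch. The single match of *Plk1* was a CCAAT box at -14. No match overlapped another in these 5 sequences, and a match is a run of letters, not a measured binding site.

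CCAAT boxes that lay 31 to 33 bases apart on the same strand recurred in the family. This spacing was noticed after the positions had been seen. It was 32 bases in *Ccnb1*, *Cdc2a*, *Aurka*, and *E2f7*, and 33 bases between each neighbouring pair in *Ccnb2*. The table gave promoters for 43 members, 49 in all, and 5 of those 49, 10.2%, held such a pair, beside 236 of 32851 promoters of all genes, 0.718%. Among promoters with at least 2 CCAAT boxes on a strand the spacing occurred in 5 of 14 of the members and in 236 of 2277 of all genes, 35.7% and 10.4%.

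Single motifs were counted in the same way, again with no test. NF-Y matched 26 of 49 member promoters, 53.1%, beside 33.8% of all. The E2F motif matched 3 of 49, 6.12%, beside 0.654%, and CHR matched 9 of 49, 18.4%, beside 17.1%. NF-Y matched 16 of 27 promoters of members above background by limma and 10 of 22 promoters of the other members. Both *Ccnb1* and *Ccnb2* carried spaced CCAAT boxes, although the signal of *Ccnb1* was far above background and that of *Ccnb2* was not, as given next.

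**Figure D3:**
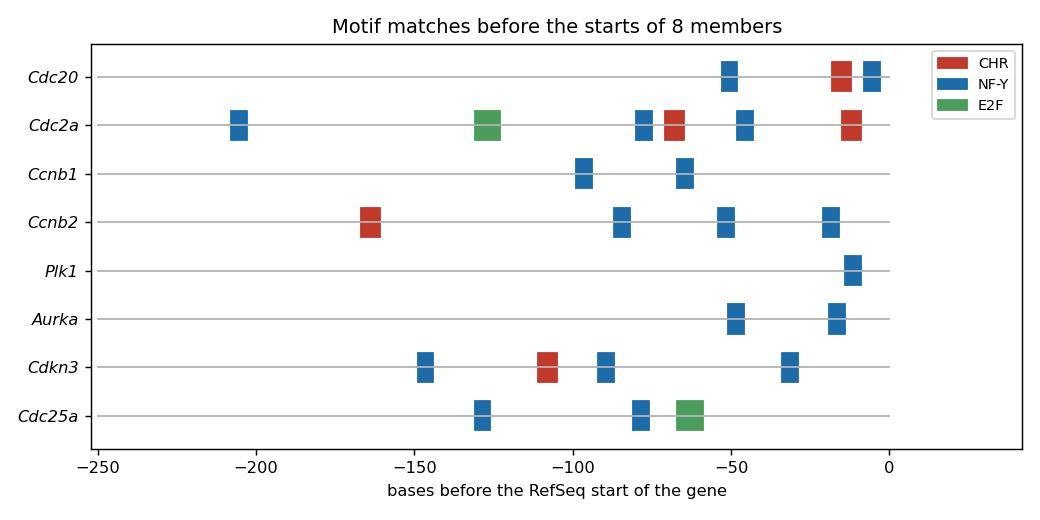
Motif matches in the 250 bases before the RefSeq start (x axis, bases relative to the start, which is at 0) of 8 members, with CHR in red, NF-Y in blue, and E2F in green. NF-Y boxes of *Ccnb1*, *Ccnb2*, *Aurka*, and *Cdc2a* include pairs 32 or 33 bases apart, and *Plk1* has a single box at -14. The members were chosen after the positions were seen.

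Among the cyclins of the cell cycle, a B-type, a D-type, and both E-type cyclins were detected on every array, while the A-type cyclins were not. *Ccnb1*, the cyclin that brings CDK1 into mitosis, gave signals of 10.49, 10.43, and 9.48 from 2 probes, a level of 5.19. *Ccnd1*, a partner of CDK4 and CDK6 in the response to growth signals, gave 10.57, 10.49, and 10.11, a level of 5.45. Both stood far above background on each array. Replicate 3 gave the lowest signal of both as deposited, but after normalization it gave the highest level of *Ccnd1*, with 10.20, 10.34, and 10.39. The E-type cyclins activate CDK2 at the start of DNA replication. *Ccne1* gave 7.44, 7.59, and 6.99, a level of 1.62, and *Ccne2* gave 8.36, 8.18, and 7.69, a level of 2.77, so both also cleared the background on all arrays. The 9 levels recomputed for each of these genes under the settings tried were all called, with adjusted p-values from limma of at most 0.00610.

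*Ccna2*, the A-type cyclin of dividing somatic cells, gave 6.68, 6.37, and 6.40 from a single probe, with detection p-values of 0.0118, 0.872, and 0.373. Only replicate 1 came near the threshold. *Ccna1*, the germline A-type cyclin, *Ccnb2*, and *Ccnb3*, a meiotic B-type cyclin, were detected on no array and had mean signals between 6.44 and 6.49. The signals of *Ccnb2* were 6.51, 6.41, and 6.41, at or under the background signal of each array. *Ccnb3* had 2 probes and the others a single one. Signals such as these give a bound for the probes and do not show that the transcript was missing.

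*Ccnd2* and *Ccnd3*, the other D-type cyclins, showed how the combined detection p of a symbol with several probes can part from its mean signal. *Ccnd2*, with 4 probes, gave 9.02, 8.74, and 8.42, a level of 3.61, and was detected on no array, with combined p-values of 0.0316, 0.0178, and 0.0340. *Ccnd3*, with 3 probes, gave 9.37, 9.25, and 8.89, a level of 4.13, and missed the threshold on replicate 1 alone, with a detection p-value of 0.0155. Their mean signals thus lay well above the background signal of every array although the combined p did not pass on all of them.

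The combined p was found to follow from the sum of the p-values of the single probes, so this sum could be recovered. For *Ccnd2* the 4 p-values summed to 0.927, 0.786, and 0.947, and a sum of at most 0.657 would have passed for 4 probes. A mean signal far above background with a sum this high means that the probes of the symbol disagreed, with at least 1 near background. The single-probe values were not analysed here, so which probe carried the signal is not known.

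There were 13 members that limma called and detection on 3 arrays did not, and each had several probes. Their levels ran from 0.62 to 4.13 with a median of 2.63. On the array where it was highest, the mean p per probe was between 0.0994 and 0.482. Over the whole table the same gap was seen: among symbols with several probes limma called 38.1% and detection 19.6%, and among symbols with 1 probe 20.7% and 20.9%. Of the 24 members with 1 probe both rules called the same number, 12. The background level of each array was itself the lowest level of a detected symbol with 1 probe. The agreement of both rules for such symbols, and the lack of members with 1 probe among the 13, were therefore largely built in.

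**Figure D4:**
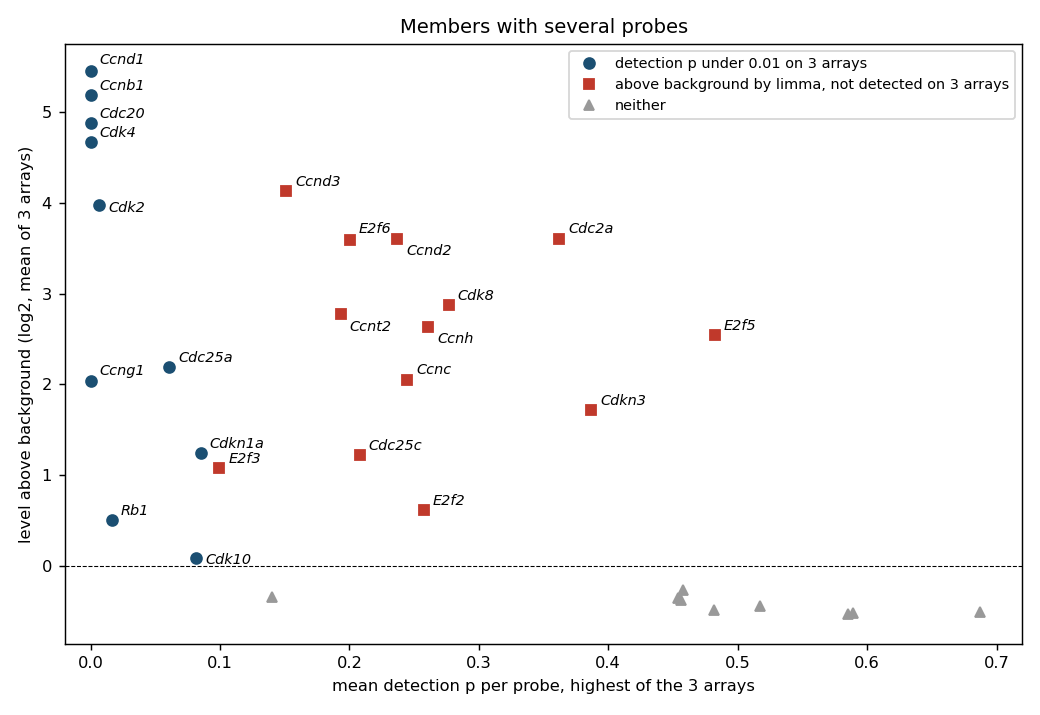
The 33 members with several probes, by their mean detection p per probe on the array where it was highest (x axis) and their level above background (y axis, log2, mean of 3 arrays). Circles were detected on all 3 arrays, red squares were called by limma only, and grey triangles by neither. The squares have levels from 0.62 to 4.13 at a mean p per probe of 0.0994 or more.

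*Cdc2a*, encoding CDK1, belonged to this class. Its 3 probes gave a mean signal of 9.25, 8.95, and 8.04 and a level of 3.61, with combined p-values of 0.00582, 0.213, and 0.0781. It was therefore detected on replicate 1 only, and its p-values summed to 1.085 on replicate 2, which requires a probe with p of at least 0.362 there. Of the kinases that work in the earlier phases, *Cdk2* and *Cdk4* were detected throughout. *Cdk2* gave 9.43, 9.01, and 8.71 from 4 probes, a level of 3.98, and *Cdk4*, the partner of the D-type cyclins, gave 9.82, 9.72, and 9.44 from 2 probes, a level of 4.67. *Cdk6*, the other D-type partner, gave 6.53, 6.50, and 6.49 from its single probe and was detected on no array. *Cdk3* also was at background, with 6.59, 6.49, and 6.29.

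Kinases with roles beyond the division cycle were split. *Cdk5*, best known from neurons, gave 7.40, 7.28, and 6.86, a level of 1.31. *Cdk9*, the kinase that releases paused RNA polymerase II, gave 7.70, 7.46, and 7.19, a level of 1.82. Both were detected on all arrays. *Cdk8*, the kinase of the Mediator complex, gave 8.40, 8.07, and 7.98 from 3 probes and was called by limma, with a level of 2.87, but detected on replicate 2 only. *Cdk7*, the CDK-activating kinase, gave 6.50, 6.59, and 6.40 from 2 probes and was called by neither rule. *Cdk10* was the only member that detection called and limma did not. Its signals were 6.77, 6.79, and 6.51, its level was 0.09 with an adjusted p from limma of 0.993, and without replicate 3 the level was 0.35 with an adjusted p of 0.0160.

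The cyclins of transcription followed their kinases in part. *Ccnt1*, a partner of CDK9, gave 9.50, 9.39, and 9.09, a level of 4.30, and was detected on all arrays. *Ccnt2*, the other partner, gave 8.38, 8.09, and 7.77 from 4 probes, a level of 2.77, and was detected on 2 arrays. The CDK9 kinase was thus above background together with both its cyclins by limma. *Ccnc*, the cyclin of CDK8, gave 7.75, 7.77, and 7.25 from 6 probes, a level of 2.05, and was detected on 2 arrays, so this pair too was called by limma and not by detection on 3 arrays. *Ccnh*, the cyclin of CDK7, gave 8.28, 8.26, and 7.44 from 2 probes, a level of 2.63. It was detected on replicate 3, the array with its lowest signal, where the p-values of its probes summed to 0.0299 against 0.521 and 0.359 on replicates 1 and 2. The order of the detection p thus ran against the order of the mean signal. *Ccnk*, a cyclin of transcription elongation, gave 6.63, 6.67, and 6.40 and was detected on replicate 2 only.

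Of the remaining cyclins, *Ccng1*, a target of p53, gave 7.85, 7.57, and 7.32 from 3 probes, a level of 2.04, whereas its relative *Ccng2* gave 6.68, 6.56, and 6.48 from 1 probe and was detected on no array. *Ccnl1*, a cyclin linked to RNA splicing, gave 7.13, 6.94, and 6.62, a level of 0.66. Its adjusted p from limma was 1.68e-05, and with median scaling in place of quantile normalization the level was 0.73 with an adjusted p of 0.0831. The call was thus lost there although the level was no lower. On replicates 1, 2, and 3 *Ccnl1* lay 1.03, 0.80, and 0.17 above background, a spread that the common standard error of the main fit does not carry. *Ccnl2* gave 6.58, 6.43, and 6.30, below the background signal of each array.

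Of the 8 CDK inhibitors, *Cdkn1c* was far above background and most others were at background. *Cdkn1c*, an imprinted inhibitor expressed from the maternal allele, gave 11.69, 11.64, and 11.42 from 1 probe. Its level was 6.69 and ranged from 4.92 to 7.29 over the settings tried. Probes differ in how well they hybridize, so such levels set no order among transcripts. *Cdkn1a*, the inhibitor induced by p53, gave 7.48, 7.06, and 6.90 from 3 probes, a level of 1.24, and was detected on all arrays. *Cdkn1b*, the third of this family, gave 6.55, 6.49, and 6.36 from 3 probes and was detected on none.

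All 4 inhibitors of the INK4 family, which bind CDK4 and CDK6, were detected on no array. *Cdkn2d* had the highest mean signal of them, with 6.67, 6.54, and 6.56, and detection p-values of 0.0214, 0.147, and 0.0160. *Cdkn2a*, *Cdkn2b*, and *Cdkn2c* had mean signals of 6.42 to 6.49. *Cdkn3*, a phosphatase that acts on CDKs and shares the name of the inhibitors, gave 7.50, 7.47, and 7.19 from 2 probes, a level of 1.72, and was detected on replicate 2 only.

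The CDC25 phosphatases remove the inhibitory phosphate on CDKs that Wee1 adds. *Cdc25a*, the phosphatase that acts from DNA replication onwards, gave 7.96, 7.54, and 7.53 from 2 probes, a level of 2.19, and was detected on all arrays. *Cdc25c*, a mitotic phosphatase, gave 7.24, 7.21, and 6.92 from 3 probes, a level of 1.22, and was detected on replicate 1 only. *Cdc25b* gave 6.59, 6.57, and 6.47, and *Wee1*, the opposing kinase, gave 6.56, 6.47, and 6.51. Neither was detected on any array.

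The mitotic kinases and Cdc20 were detected on each array and were called under every setting tried. *Aurka*, the Aurora kinase of the spindle poles, gave 10.97, 10.68, and 10.69, a level of 5.87. *Plk1*, the Polo kinase of mitotic entry, gave 10.72, 10.57, and 10.56, a level of 5.70. For both, replicates 2 and 3 lay close together. *Aurkb*, the kinase of the chromosomal passenger complex, gave 9.22, 8.99, and 8.15, a level of 3.67, and here replicate 3 lay below the others. *Cdc20*, the activator of the APC/C at anaphase, gave 10.14, 9.86, and 9.54, a level of 4.88, and the p-values of its 4 probes summed to 0 on each array, so that every probe exceeded all negative controls. Its paralog *Cdc20b* gave 6.59, 6.32, and 6.42, at background.

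Among the E2F factors, *E2f1*, an activator of genes for DNA replication, gave 8.99, 8.83, and 8.51, a level of 3.66. *E2f4*, a factor that binds DNA with the pocket proteins, gave 8.39, 8.34, and 8.16, a level of 3.07. Only these 2 of the 8 were detected on all arrays. A further 4 were called by limma alone, each with several probes. *E2f6*, a repressor that does not bind pocket proteins, gave 9.04, 8.89, and 8.23 from 4 probes, a level of 3.59. *E2f5*, a relative of *E2f4*, gave 8.27, 8.17, and 7.35 from 2 probes, a level of 2.54, with p-values that summed to 0.965 on replicate 1. The activator *E2f3* gave 7.21, 7.11, and 6.85, a level of 1.08. The activator *E2f2* gave 7.04, 6.80, and 6.74, a level of 0.62. *E2f7* and *E2f8*, the atypical repressors, were at background with mean signals of 6.50 and 6.38.

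The pocket proteins gave little signal. *Rb1*, the retinoblastoma protein, gave 6.90, 6.94, and 6.62 from 2 probes, and its level of 0.50 was called with an adjusted p from limma of 0.00154. On replicates 1, 2, and 3 it lay 0.53, 0.80, and 0.17 above background, a spread that the common standard error does not carry. With median scaling the call was lost at a level of 0.54, no lower than before, with an adjusted p of 0.0631. It was also lost without replicate 2, where the level was 0.34 with an adjusted p of 0.247. *Rbl1* gave 6.63, 6.57, and 6.42 and *Rbl2* gave 6.55, 6.43, and 6.38, and both were detected on no array.

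Genes that work with these members were listed by their role in the pathway. Of 56 such partners 26 were detected on all arrays, 36 were called by limma, and 21 were detected on none. The shares of all symbols were 20.6%, 25.7%, and 67.0% in the same order, and the list was not tested against them. All 4 chromosomal passenger and spindle partners of the Aurora kinases were detected. *Birc5* gave 10.68, 10.60, and 10.18, and *Tpx2*, the activator of Aurora A, gave 7.70, 7.23, and 7.05. Of the 18 genes of the APC/C and its substrates 7 were detected, among them *Fzr1*, the activator that follows Cdc20, with 10.12, 9.91, and 9.60. Of the 7 spindle checkpoint genes *Mad2l1* and *Bub1b* were.

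Of the 9 genes of SCF ubiquitin ligases and CDK subunits 4 were detected, with *Rbx1* at 11.14, 11.13, and 10.31, and neither *Cks1b* nor *Cks2*, small CDK-binding subunits, was. *Mnat1*, which assembles CDK7 with cyclin H, was detected, at 9.17, 9.15, and 8.67, while *Pkmyt1*, a kinase that inhibits CDK1, was not. Of 9 E2F partners and DREAM genes 4 were detected. *Tfdp1*, the dimerization partner of E2F factors, gave 10.16, 9.80, and 8.97, so its replicate 3 too was the lowest. Of the checkpoint kinases *Chek2*, *Atr*, and *Atm* were detected and *Chek1* was not. Of the proliferation markers *Pcna* was detected, with 7.69, 7.42, and 6.79, and *Mki67* and *Top2a* were called by limma but not detected on all arrays.

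The arrays differed little in how many members they detected, with 28, 30, and 26 on replicates 1, 2, and 3. As deposited, replicate 3 was the dimmer array for the detected members, with 21 of 22 lower there than the mean of the other arrays once each array was centred on its median (median difference -0.27). The median over all detected symbols was close to it, at -0.26. After quantile normalization the median difference was 0.02 for the members and 0.03 for all detected symbols. The median SD of the normalized level over the arrays was 0.21 for the 22 members and 0.17 for all 6357 detected symbols. This order depended on the scaling, as the centred deposited signals gave 0.18 for the members and 0.19 for all detected symbols.

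Among the 22 detected members, *Aurkb* and *Ccnb1* lay furthest below the other arrays on replicate 3 under both scalings. For *Aurkb* the normalized levels were 8.71, 8.70, and 8.17, and replicate 3 was 0.54 lower than the mean of the others. For *Ccnb1* they were 10.12, 10.28, and 9.72, and replicate 3 was 0.48 lower. On the centred signals as deposited these differences were -0.84 and -0.86. Their SDs over the arrays were not unusual, at the 84.1 and 80.2 percentile of all detected symbols. That of *Ccne1* was higher, at the 85.9 percentile, with replicate 2 above the mean of the others by 0.56 after normalization and 0.36 on the centred signals. Members that were called by limma only went both ways after normalization. Some had their lowest normalized level on replicate 3, among them *Cdc2a* with 8.74, 8.63, and 8.01 and *E2f5* with 7.55, 7.68, and 6.97. Others had their highest there, among them *Ccnd3* with 8.89, 8.99, and 9.07 and *Cdk8* with 7.71, 7.55, and 7.92. On the centred signals replicate 3 was not the highest for *Ccnd3* or *Cdk8*, so this direction depended on the scaling. *Plk1* lay 0.51 higher on replicate 3 after normalization but differed by 0.03 on the centred signals, and *Aurka* moved from 0.43 to -0.02, so their direction depended on the scaling. Among the detected members the smallest SDs of the normalized level were those of *Cdk9*, 0.06, and *Cdc20*, 0.07. With a single group these differences between arrays have no test.

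**Figure D5:**
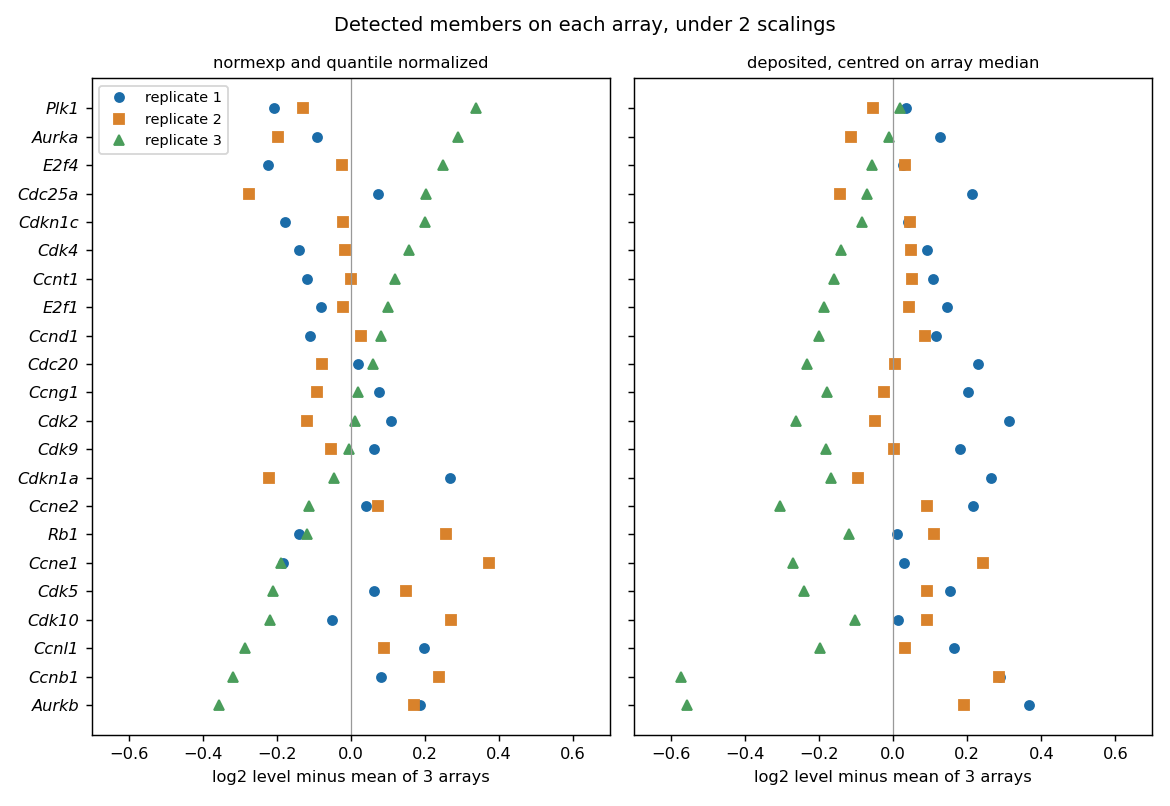
The 22 members detected on all arrays (y axis) by their log2 level on each array minus their mean over the 3 arrays (x axis), after normexp and quantile normalization on the left and as deposited, centred on the median of each array, on the right. Replicate 3 of *Aurkb* and *Ccnb1* lies to the left in both panels, and replicate 3 of *Plk1* lies to the right in the left panel and near 0 in the right one.

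The tissue was checked with marker genes. Of 14 markers of the embryonic region 9 were detected on all arrays. Of 12 markers of the visceral endoderm, an outer layer with extraembryonic and embryonic parts, all 12 were. Of 11 markers of extraembryonic ectoderm and trophoblast 4 were detected, namely *Cdx2*, *Ets2*, *Rhox5*, and *Tcfap2c*. *Hand1* was detected on 2 arrays, and *Elf5*, *Eomes*, *Ascl2*, *Gcm1*, *Tpbpa*, and *Prl3d1* were on no array. None of 5 markers of primitive blood was detected on any array. The log2 of the summed unlogged signals of the visceral endoderm markers was 13.87, 13.97, and 12.90 on replicates 1, 2, and 3, and that of the embryonic region markers was 12.20, 11.80, and 11.52. That of the extraembryonic ectoderm and trophoblast markers was 11.68, 11.59, and 10.91, and that of the 56 partners was 14.28, 14.14, and 13.74. These sums use signals as deposited, and all of them were lowest on replicate 3, the dimmer array. Their part in the low values of *Aurkb* and *Ccnb1* there was not tested.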

How the data were processed

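Total RNA of the embryonic region was measured on 3 Illumina Mouse-6 arrays, assigned to replicates 1 to 3 from the sample labels. Per gene symbol, the authors deposited a log2 signal averaged over probes, a bead number (unit score), a standard error over beads (unit signal, read but not reported) and a detection p-value. The submitters' processing notes name Partek. The normalization is not given in the sources used here, and the table is unnormalized, so array brightness enters raw signals.

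Detection p moved in steps of 1 in 936, from which the number of probes (up to 12) was inferred for 30816 of 30854 symbols. Averaging over probes lets a silent probe lower the signal and raise the combined p. Median signals were 6.57, 6.51, and 6.42 on replicates 1, 2, and 3, median bead numbers were 44, 43.5, and 43, and 9015, 8220, and 7191 symbols were detected. The small number of arrays limits precision.

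Levels were computed with normexp (offset 16), quantile normalization, and limma 3.58.1 (R 4.3.3), threshold 0.05 after Benjamini-Hochberg adjustment. The background of an array was the lowest level with a detection p above 0 and under 0.01. It shifted between arrays for all genes together, so the standard errors came out equal. The fit was tested on simulated data. Other steps ran in Python 3.11.15 with pandas 2.3.3, numpy 2.4.6, scipy 1.17.1, and matplotlib 3.10.9.

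The members and lists were chosen with earlier results of these data known. Every member is named, with values on each array for those detected on all arrays and for the undetected member of a role with the highest mean signal, and for others that clarify a pair. Promoters are RefSeq's, and 14 members had none in the table. Alternatives were other detection thresholds, scalings, offsets, and backgrounds, and fits without 1 replicate.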

Additional observations from a re-analysis of the deposited data

How the results depend on the processing

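The count of 22 detected members was 31 at a detection p under 0.05, 18 under 0.001, 27 on at least 2 arrays, and 23 to 24 without a replicate. It moved to 35 with detection on at least 1 array and to 34 with limma. The count of 6357 detected symbols in the whole table was 7610 at a detection p under 0.05, 5249 under 0.001, and 7897 on at least 2 arrays. It moved to 10172 with at least 1 array, and was 7940 with limma and 6524 to 7427 without a replicate. Other rules were chosen after seeing the data. Symbols with 1 probe alone gave 12 members beside 4597 of all symbols, and a summed p of all probes under 0.01 gave 17 beside 5613. Partners (27 to 30) and markers (25 to 26) held without a replicate, and limma called 33 to 35 members. The median difference from the other arrays was 0.22 for replicate 1 and -0.27 for replicate 3 on centred deposited signals. The median SD of the members fell to 0.10 with quantile normalization of the deposited signals, beside 0.11 for all detected symbols. Of 456 recomputed levels 443 kept their call. A change of direction was counted only for a level that was called in the main fit or in the other setting. Background was also taken as the median of symbols with a detection p above 0.5. There, 6 levels below background turned above it and gained a call. They were those of *Ccng2* (0.34), *Ccnk* (0.35), *Cdkn2c* (0.13), *Cdkn2d* (0.44), *Cdc25b* (0.27), and *Rbl1* (0.26). Other levels turned above it without a call, such as *Ccna1* (0.14) and *Wee1* (0.23), while *E2f8* stayed below under every setting. This change of background raises the levels of all genes by the same amount, with *Ccnb1* moving from 5.19 to 5.80. *Ccnl1* and *Rb1* lost their call with median scaling (0.73 and 0.54) and without normalization (0.73 and 0.54), *Rb1* also without replicate 2 (0.34), and *Cdk10* gained one without replicate 3 (0.35) and with the other background (0.69). Signals within the background band set only a bound. No paired analysis was possible because the arrays form only 1 group.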
